A study of Mus musculus with 2 samples.

Results

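Interferon-induced genes are the genes that a cell switches on when an interferon binds its receptor. A list of 35 such genes was followed through a single-cell RNA data set of mouse visceral fat, and all 35 were found by symbol among the 30084 genes of the count table. The list was taken from knowledge of the pathway and not from a measured value, but it was chosen with earlier results of these data known. It was described in each cell lineage, in each of 4 hashtags, and in the few cells of a lineage that carried the genes at a high level.

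Male wild-type mice and Mincle-deficient mice, both on the C57BL/6J background, had received a high-fat diet for 15 weeks. Mincle is a lectin receptor of macrophages encoded by Clec4e. The stromal vascular fraction, which is what remains of fat once the adipocytes are removed, was prepared from epididymal white adipose tissue with Liberase. Cells were stained with hashtag antibodies, pooled, loaded as 20000 cells on a BD Rhapsody system and sequenced by TAS-Seq as 1 pool with 2 libraries, transcripts and hashtags.

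No label gives the number of mice, the animal or animals behind a hashtag, or the genotype that a hashtag stands for. Cell names carried 4 hashtags, A0309, A0310, A0311 and A0312, and the hashtags were therefore kept as 4 separate sets of cells and were not treated as replicates. No p-value was computed, and a range over hashtags is a spread within 1 pool. Of 15741 cells, 15192 were analysed, with 3255 cells of A0309, 3475 of A0310, 3857 of A0311 and 4605 of A0312. A cell held a median of 34641.5 counts and 4529 genes, and between 6596 and 473807 counts.

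The targeted gene itself differed between hashtags. In macrophage-like cells Clec4e was at 11.2 CPM (counts per unit of summed depth, scaled alike for every set of cells) in A0309 and 15.7 CPM in A0310, against 0.734 CPM in A0311 and 0.546 CPM in A0312. In monocyte-like cells its level was 87.9, 166.4, 4.43 and 0.484 CPM in the same order. These values assign no genotype, and no comparison below rests on them.

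Cells were clustered without the 35 genes and without the other genes of the pathway, and were named from marker lists. The named sets were 8519 macrophage-like, 3967 fibroblast-like, 1166 endothelial-like, 419 monocyte-like, 280 dendritic-cell-like and 404 T-cell-like cells, and mural-like cells numbered 81, 77, 68 and 83 in A0309, A0310, A0311 and A0312. The mural-like set joins 236 cells led by Rgs5, Acta2 and Abcc9 and 73 cells that carried the mural markers but were led by Selp, Lrg1, Plvap, Ackr1 and Vwf, genes of venous endothelium. Whether these 73 are mural cells, endothelial cells or both together was not tested, and every mural-like value below holds both sets. Where the sets differed in a gene named for its mural-like level, both values are given. Another 30 B-cell-like, 17 mesothelial-like and 81 unnamed cells were too few to describe. The B-cell-like cells had Siglech, a plasmacytoid dendritic cell gene, among their leading genes. Median counts per cell ran from 10493 in T-cell-like cells to 41223 in macrophage-like cells, so shares of cells with a count are also given after each cell was thinned to 10000 counts.

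Type I interferons (the alpha and beta forms) bind one receptor, and its kinases JAK1 and TYK2 activate a complex with STAT2 and IRF9 that binds interferon-stimulated response elements in the promoters of target genes. Interferon gamma, made mainly by T cells and natural killer cells, acts through another receptor and gamma-activated sites, and many guanylate binding proteins respond to it. Many of the induced genes also have a low level of expression without infection, and in fat the pathway has been studied in adipocytes, macrophages and endothelium. The 35 genes hold antiviral effectors, the ubiquitin-like modifier Isg15 with its protease Usp18, RNA sensors, transcription factors of the pathway itself, guanylate binding proteins and 6 further induced genes.

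On GRCm38 (GENCODE M21 annotation) 34 of the 35 genes were annotated as protein coding and Mx2 as a polymorphic pseudogene. C57BL/6 mice are known to carry a deletion in Mx1 that abolishes its functional protein, so its RNA is a readout of induction only. Rsad2 and Cmpk2 lay 12751 bases apart on chromosome 12, 4 Ifit genes lay on chromosome 19, 5 Oas and Oasl genes on chromosome 5, and the 3 Gbp genes and Ifi44 on chromosome 3. Coding sequences were 99.1% identical between Ifit3 and Ifit3b, 96.7% between Oas1a and Oas1g, 90.2% between Trim30a and Trim30d, 82.2% between Mx1 and Mx2 and 79.6% between Gbp3 and Gbp7. Reads could have been split between these copies, and values of single genes within a pair are uncertain.

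Promoter sequence is shown for the 5 genes that later define strongly induced cells and for Gbp7, to set genes with different numbers of response elements side by side. The stretches run from 200 to 41 bases before the RefSeq start (GRCm38.p6), 5′ to 3′ on the gene's own strand. Capitals mark GAAA-NN-GAAA (N is any base, the hyphens only separate the parts), the core of the interferon-stimulated response element, read on both strands, so that a match on the opposite strand appears as TTTC-NN-TTTC.
Rsad2 (chr12:26456493-26456652, minus strand): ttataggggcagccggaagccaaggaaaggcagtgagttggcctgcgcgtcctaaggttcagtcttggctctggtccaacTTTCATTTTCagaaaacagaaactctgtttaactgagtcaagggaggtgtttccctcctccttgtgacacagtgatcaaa
Cmpk2 (chr12:26469015-26469174, plus strand): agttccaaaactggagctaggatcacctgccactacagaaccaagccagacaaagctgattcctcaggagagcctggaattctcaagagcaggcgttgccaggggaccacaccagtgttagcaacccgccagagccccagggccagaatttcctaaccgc
Ifit1 (chr19:34640689-34640848, plus strand): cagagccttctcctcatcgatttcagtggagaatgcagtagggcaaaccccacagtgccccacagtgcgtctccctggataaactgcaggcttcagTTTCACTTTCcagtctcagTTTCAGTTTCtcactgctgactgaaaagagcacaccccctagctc
Ifit3 (chr19:34583329-34583488, plus strand): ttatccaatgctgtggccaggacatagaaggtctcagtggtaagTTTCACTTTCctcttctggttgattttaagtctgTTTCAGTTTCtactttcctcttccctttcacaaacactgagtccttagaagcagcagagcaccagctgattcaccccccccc
Isg15 (chr4:156200859-156201018, minus strand): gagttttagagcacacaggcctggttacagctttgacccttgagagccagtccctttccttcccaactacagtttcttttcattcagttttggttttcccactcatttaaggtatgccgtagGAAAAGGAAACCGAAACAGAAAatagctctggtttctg
Gbp7 (chr3:142530136-142530295, plus strand): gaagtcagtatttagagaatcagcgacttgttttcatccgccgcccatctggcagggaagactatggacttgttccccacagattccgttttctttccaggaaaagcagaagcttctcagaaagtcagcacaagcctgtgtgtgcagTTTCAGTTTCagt
Rsad2 had 1 match, 120 bases before its start. Its neighbour Cmpk2, read from the opposite strand, had none in the window. Ifit1 had 2 matches, at 104 and 85 bases, and Ifit3 had 2, at 156 and 122 bases. In Isg15 the matches at 78, 72 and 66 bases overlap, since each shares its last 4 letters with the next.

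RefSeq promoter windows of 300 bases, from 250 before to 50 after the start, were found for 27 of the 35 genes. Mx1, Mx2, Oas2, Usp18, Dhx58, Rtp4, Zbp1 and Parp14 had no entry. GAAA-NN-GAAA was present in 17 of 27 (63.0%), against 3.99% of the 27025 genes of the table and 3.44% of its 32851 windows, and 8 genes had more than 1 match. Among 36 other induced genes 18 (50.0%) had it. TTCNNNGAA, the core of the gamma-activated site and its own reverse complement, was present in 8 of 27 (29.6%), in 5 of 36 other induced genes (13.9%) and in 9.55% of all genes. A match describes letters and is not evidence of a bound factor.

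Endothelial-like cells carried most of these genes at their highest level. A level is the CPM of the counts summed over the cells of a lineage, and levels are compared between lineages for 1 gene at a time, because counts were not divided by transcript length. Over the 7 larger lineages, the highest level was in endothelial-like cells for 23 of 35 genes, in monocyte-like cells for 4, in dendritic-cell-like cells for 3, in mural-like cells for 2, and in T-cell-like, fibroblast-like and macrophage-like cells for 1 each. The share of all genes with their highest level in endothelial-like cells is not given, so the 23 cannot be read as particular to these genes. In 14 genes the same lineage was highest in all 4 hashtags. Among them Mx1 was highest in dendritic-cell-like, Oas1a in monocyte-like and Ifitm3 in mural-like cells, and the rest in endothelial-like cells. With the 236 Rgs5-led mural-like cells alone, Ifitm3 (1123 CPM) would be highest in endothelial-like cells, and Ifih1 (68.9 CPM) in mural-like cells. Every gene reached 5 CPM in some lineage, and the lowest of their highest levels was 12.2 CPM, for Mx2.

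**Figure D1:**
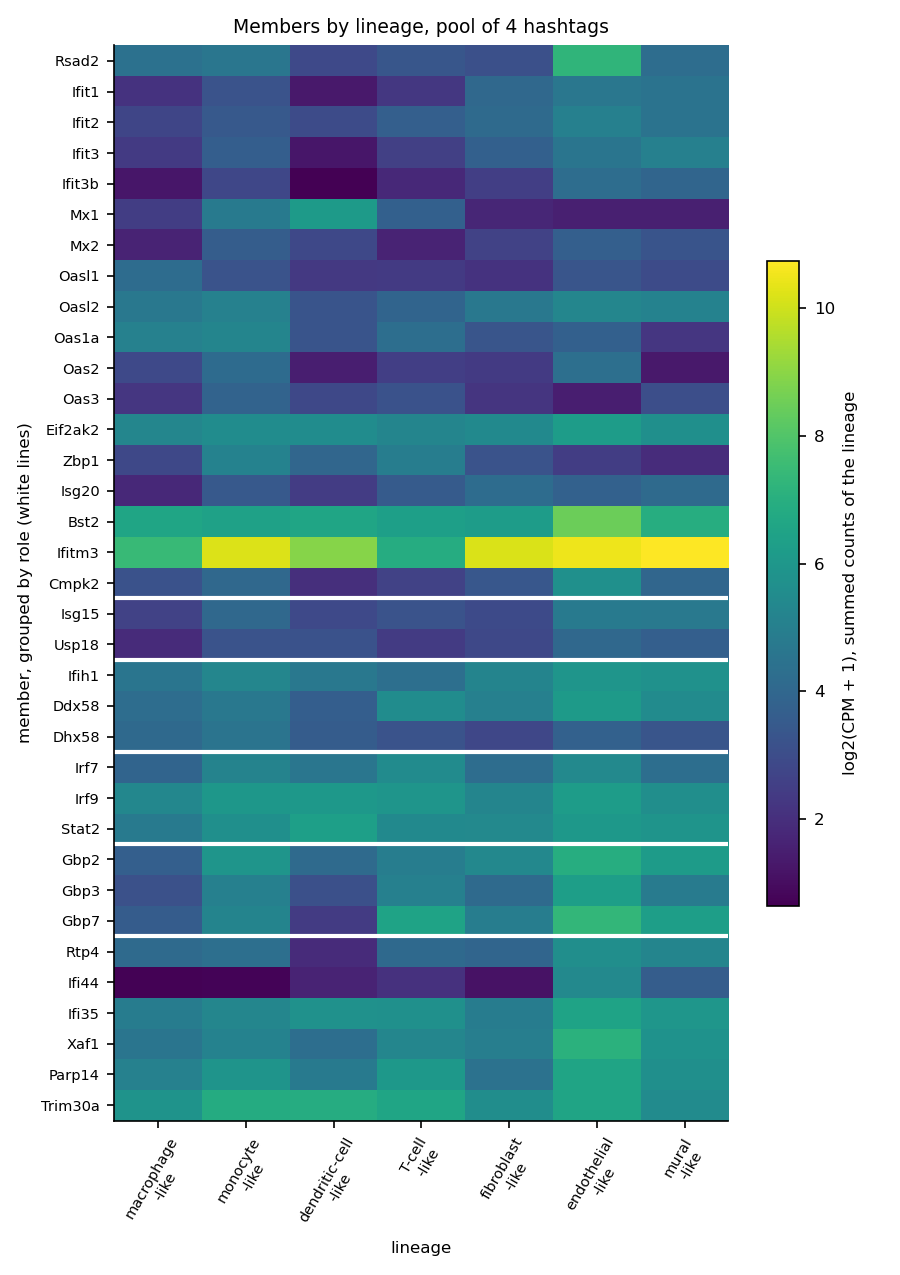
Level of each of the 35 genes as log2(CPM + 1) of summed counts, with genes in rows grouped by role and 7 lineages in columns. The endothelial-like column holds the highest value of 23 rows, while Mx1 is highest in the dendritic-cell-like column.

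Among the antiviral effectors, Rsad2 encodes viperin, an enzyme that makes a chain-terminating nucleotide. In endothelial-like cells Rsad2 was at 101.8, 197.1, 137.8 and 168.4 CPM in A0309, A0310, A0311 and A0312 (pool 150.7 CPM). In macrophage-like cells it was at 11.1, 24.2, 24.3 and 19.4 CPM (pool 20.2) and in fibroblast-like cells at 6.12, 6.05, 7.74 and 10.6 CPM (pool 7.56). The 4 endothelial values lay above every other lineage's value for this gene. Rsad2 was detected in 46.4% of endothelial-like cells, 14.7% of macrophage-like cells and 5.87% of fibroblast-like cells, and in 42.4%, 6.81% and 2.99% after thinning. No lineage here is known to lack the gene, so no background share can be set beside these. Cmpk2, a mitochondrial nucleotide kinase next to Rsad2, was also highest in endothelial-like cells, at 33.0, 58.4, 54.9 and 57.2 CPM, with 8.26 CPM in macrophage-like and 9.47 CPM in fibroblast-like cells.

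Ifitm3 and Bst2, the 2 effectors with the most counts, were present in every lineage. Ifitm3, a membrane protein that blocks virus fusion, was at 1905, 1657, 1593 and 1682 CPM in mural-like cells and at 1516, 1327, 1554 and 1302 CPM in endothelial-like cells. The mural-like level was 2777 CPM in the 73 cells led by venous genes and 1123 CPM in the other 236. Monocyte-like cells had 1115, 1115, 1294 and 1253 CPM and fibroblast-like cells 1129, 1171, 1191 and 1115 CPM, and these ranges overlapped. Dendritic-cell-like cells had 432 to 521 CPM, and the lowest value of macrophage-like cells (152 to 183 CPM) was above the highest of T-cell-like cells (73.9 to 145 CPM).

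Bst2, or tetherin, holds budding virus at the cell surface. Its level was 341, 318, 392 and 353 CPM in endothelial-like cells and 121 CPM in mural-like cells (108 to 137), made up of 215 CPM in the 73 cells and 69.4 CPM in the 236. The other 5 lineages ran from 73.0 CPM in fibroblast-like to 95.8 CPM in dendritic-cell-like cells with overlapping hashtag ranges, and T-cell-like (42.6 to 118 CPM) and monocyte-like cells also overlapped mural-like cells. Bst2 was detected in 79.5% of endothelial-like cells, or 80.5% after thinning.

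The Ifit proteins bind viral RNA. Ifit1 was at 24.2 CPM in endothelial-like, 21.4 in mural-like and 15.8 in fibroblast-like cells but at 3.41 CPM in macrophage-like cells. Ifit2 had 31.7, 21.5, 16.6 and 5.70 CPM in the same 4 lineages. Ifit3 was highest in mural-like cells (31.7 CPM), where A0312 alone had 69.7 CPM, and it was at 40.6 CPM in the 236 Rgs5-led cells and 15.4 CPM in the other 73. Of its mural-like counts 51.2% lay in the 4 strongly induced cells described below, so this lead rested on few cells. In endothelial-like cells strongly induced cells held 30.6% of the Ifit3 counts. Myeloid cells led for a different set of effectors. Mx1, a dynamin-like GTPase, was at 52.0, 72.4, 48.0 and 106.4 CPM in dendritic-cell-like cells and at 21.4, 46.5, 21.1 and 28.1 CPM in monocyte-like cells, so every dendritic value exceeded every monocyte value. Its level was 4.55 CPM in macrophage-like and 1.91 CPM in endothelial-like cells.

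The Mx1 level differed between dendritic-cell-like clusters. The cluster of 21 cells led by Ccr7 and Ccl22, genes of migratory dendritic cells, had 332.8 CPM (282 to 390 CPM, exact Poisson 95% interval, which covers counting error only). The 156 cells of the Clec9a-led cluster had 59.6 CPM (52.9 to 66.9) and the 103 cells of the Cd209a-led cluster 29.4 CPM (21.8 to 38.8). In A0312 the Clec9a-led cells had 105.9 CPM, and 62.8% of those counts came from 1 cell.

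The oligoadenylate synthetases activate RNase L on double-stranded RNA. Oasl1, a catalytically inactive relative, was the 1 gene highest in macrophage-like cells, at 14.0, 17.3, 21.5 and 16.8 CPM, against 8.85 CPM in endothelial-like and 3.36 CPM in fibroblast-like cells. Oas1a was at 36.9 CPM in monocyte-like and 32.7 CPM in macrophage-like cells, and Oas3 at 13.5 CPM in monocyte-like cells. By contrast Oasl2 (38.3 CPM), Oas2 (19.3 CPM) and Eif2ak2 (74.6 CPM), the kinase that halts translation on double-stranded RNA, were highest in endothelial-like cells. Zbp1, a sensor of Z-form nucleic acid, was at 33.8 CPM in monocyte-like and 29.8 CPM in T-cell-like cells, and Isg20, an exonuclease, at 17.6 CPM in fibroblast-like cells. The remaining effectors, Ifit3b (18.1 CPM) and Mx2 (12.2 CPM), were highest in endothelial-like cells.

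Isg15, the ubiquitin-like modifier, was at 23.6, 29.0, 28.1 and 26.1 CPM in endothelial-like cells and at 13.3, 30.3, 19.4 and 38.3 CPM in mural-like cells, and these overlapped. Fibroblast-like cells (5.42 to 8.34 CPM) and macrophage-like cells (4.80 to 5.76 CPM) were lower in every hashtag. Usp18, which removes Isg15 and restrains the interferon receptor, was at 13.5, 13.7, 17.6 and 16.8 CPM in endothelial-like cells and at 1.79, 2.11, 3.81 and 2.65 CPM in macrophage-like cells.

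Of the sensors, Ifih1 (MDA5) recognises long and Ddx58 (RIG-I) short double-stranded RNA. Ifih1 was at 54.1, 53.2, 60.7 and 66.3 CPM in endothelial-like cells and at 54.4, 49.3, 37.4 and 73.4 CPM in mural-like cells, which overlapped, and at 22.7 CPM in macrophage-like cells. In mural-like cells it was at 68.9 CPM in the 236 cells and 26.0 CPM in the 73. Ddx58 was at 67.2, 80.6, 71.3 and 64.6 CPM in endothelial-like cells, and T-cell-like cells (34.9 to 65.7 CPM) overlapped them. Dhx58, their regulator, had its highest level in monocyte-like cells, at 22.1 CPM. It was at 16.0 CPM in macrophage-like and 5.89 CPM in fibroblast-like cells.

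The transcription factors of the pathway were present in every lineage. Stat2 ran from 26.9 CPM in macrophage-like to 79.5 CPM in dendritic-cell-like cells, whose hashtags (66.0 to 96.8 CPM) overlapped those of endothelial-like cells (59.4 to 75.03 CPM). Irf9 ran from 37.0 CPM in fibroblast-like to 74.5 CPM in endothelial-like cells. Irf7, the factor that amplifies the response, was at 49.6, 46.5, 42.9 and 41.4 CPM in T-cell-like cells and at 7.53, 12.3, 17.5 and 15.7 CPM in macrophage-like cells.

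The guanylate binding proteins act against microbes inside the cell. Gbp7 was at 134.9, 145.7, 177.9 and 168.9 CPM in endothelial-like cells, at 88.8 CPM in T-cell-like cells (82.1 to 104.8) and at 10.9 CPM in macrophage-like cells (8.77 to 12.5). Gbp2 was even between hashtags in endothelial-like cells, at 122, 125, 117 and 128 CPM, but in monocyte-like cells it was at 25.7, 27.0, 74.8 and 140.9 CPM. Gbp3 had 77.2 CPM in endothelial-like cells.

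Of the 6 further genes, Xaf1, linked to apoptosis, was at 123, 121, 129 and 160 CPM in endothelial-like cells and at 54.6 CPM in mural-like cells. Ifi44 was at 32.1, 23.3, 50.9 and 50.1 CPM in endothelial-like cells, against 1.18 CPM in fibroblast-like and 0.614 CPM in macrophage-like cells. The mural-like level of 11.4 CPM was made up of 27.7 CPM in the 73 cells led by venous genes and 2.42 CPM in the 236 others. The 17 mesothelial-like cells had 52.1 CPM. Ifi44 was detected in 20.4% of endothelial-like cells, or 17.1% after thinning. Trim30a, a ubiquitin ligase, was at 116.8 CPM in dendritic-cell-like cells (96.9 to 136) and 114.3 CPM in monocyte-like cells (96.7 to 139), which overlapped. Ifi35 (89.6 CPM), Parp14 (93.2 CPM) and Rtp4 (49.0 CPM) were highest in endothelial-like cells.

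**Figure D2:**
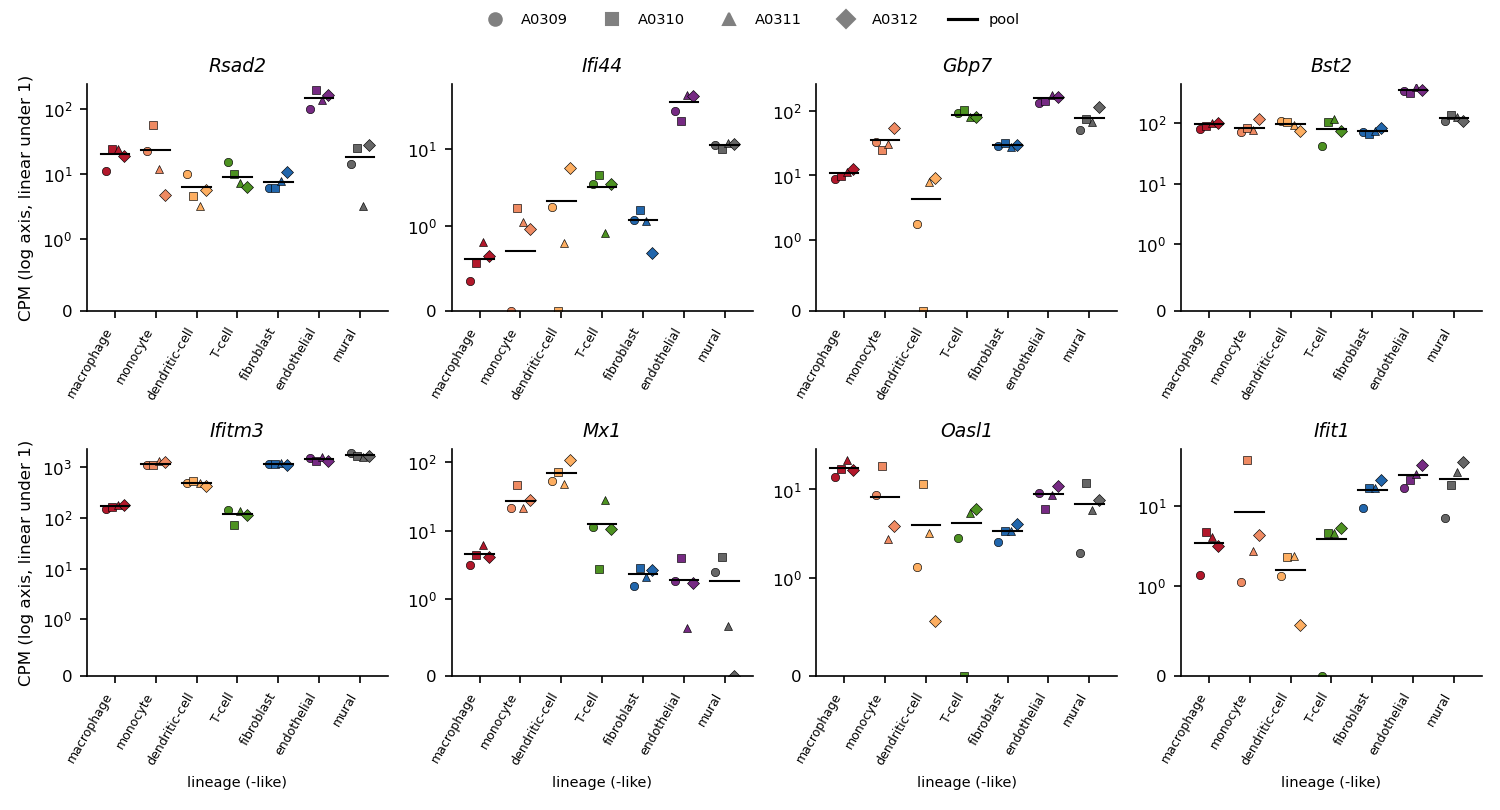
Level of 8 of the genes in CPM of summed counts (symmetric log axis) in 7 lineages, with 1 symbol for each of 4 hashtags and a bar for the pool. Rsad2 lies between 101.8 and 197.1 CPM in endothelial-like cells, above its values in the other lineages.

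Endothelial-like cells formed 2 clusters that differed in the genes they carried. The 1064 cells led by Cldn5 and Gpihbp1, genes of capillaries, had Rsad2 at 160.8 CPM, Cmpk2 at 53.5 CPM and Ifi44 at 38.1 CPM. The 102 cells led by Lrg1, Selp and Vwf, genes of veins, had Rsad2 at 31.1 CPM and Cmpk2 at 26.4 CPM but Ifi44 at 75.05 CPM. Bst2 was nearly equal, at 352.9 and 373.5 CPM.

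The comparisons between lineages used a rule of size, since 1 pool allows no test. Genes with 5 CPM or more on either side were read. A gene was called when log2((CPM + 1)/(CPM + 1)) reached 1 in 1 direction over all cells, and did so again within each hashtag that held 20 or more cells of both sets. The share of all genes called by this rule is given with each count.

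Endothelial-like against fibroblast-like cells, 14 of the 35 genes were higher and none lower, 19 were not called and 2 were under the level. Of all genes 11.3% were called higher and 9.07% lower. The median log2 ratio was 1.12 over the tested members and 0.26 over all genes tested. The largest log2 ratios were those of Ifi44 at 4.27 (3.22 to 4.93 over hashtags), Rsad2 at 4.15 (3.85 to 4.81), Gbp7 at 2.39 and Cmpk2 at 2.32. Bst2, Gbp3, Xaf1, Parp14, Oas2, Isg15, Ifit3b, Rtp4, Gbp2 and Ifi35 followed, from 2.27 down to 1.60. Ifitm3, the uncalled member with the highest level, was at 1427 against 1152 CPM.

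Other genes of the pathway were higher in endothelial-like cells as well. Of 41 other induced genes tested, 22 were called higher and 4 lower, with Gbp4 at a log2 ratio of 5.29, Tgtp2 at 3.97 and Gbp9 at 3.65, and Ifi205 at -4.15. Of 7 genes known mainly for their response to interferon gamma, 6 were called higher. The sensor Tlr3 was called higher, while Socs1, an inhibitor of the pathway, was called lower at -2.82. No receptor gene was called, and Ifnar1 was at 72.1 CPM in endothelial-like and 54.0 CPM in fibroblast-like cells.

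Macrophage-like and fibroblast-like cells, the most numerous lineages, each led for different members. In macrophage-like cells Oasl1 (log2 ratio 2.09), Oas1a (1.76) and Dhx58 (1.30) were called higher, and Ifitm3 (-2.73), Isg20 (-2.40), Ifit1 (-1.93), Gbp2 (-1.66), Ifit2 (-1.39) and Gbp7 (-1.37) were called lower. These 3 higher and 6 lower of 35 stand beside 11.8% and 17.8% of all genes, and 22 members were not called and 4 were under the level. The median was -0.38 over tested members and -0.02 over all genes. Bst2, the uncalled member with the highest level, was at 95.3 against 73.0 CPM.

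Among 35 other induced genes 4 were called higher in macrophage-like cells, with Oas1g at 1.78, Ifi209 at 1.73 and Phf11b at 1.44. Another 9 were called lower, with Ifi205 at -4.22, Ly6e at -3.85 and Iigp1 at -3.52. Upstream, the regulators Ptpn6 (2.89), Irf5 (2.86) and Irf8 (2.56), the receptor chain Il10rb (1.66) and the endosomal RNA sensor Tlr7 (3.03) were called higher in macrophage-like cells. Jak1 was called lower at -1.24, and Socs1 was at 6.38 CPM in macrophage-like against 145 CPM in fibroblast-like cells.

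Monocyte-like against macrophage-like cells, 10 of 35 genes were called higher and none lower, 24 were not called and 1 was under the level, beside 4.06% of all genes called higher and 3.74% lower. Ifitm3 had a log2 ratio of 2.76, Mx1 2.34, Zbp1 2.28 and Gbp2 2.20, and Mx2, Gbp3, Isg20, Gbp7, Oas3 and Oas2 lay between 1.97 and 1.29. The median was 0.94 over tested members and 0.09 over all genes. Without the strongly induced cells described below, Ifitm3, Zbp1 (2.19) and Oas2 (1.23) were still called higher, Oasl1 was called lower at -1.73, and the pool ratio of Mx1 was 2.12 with one hashtag at 0.78. Trim30a, the uncalled member with the highest level, was at 114.3 against 56.4 CPM. Of 41 other induced genes 12 were called higher, led by Ms4a4c at 4.53, Slfn1 at 3.92 and Ly6e at 3.76.

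The Gbp2 difference rested on few cells. Of the Gbp2 counts of 419 monocyte-like cells, 48.6% lay in 5 cells, 2 of A0311 and 3 of A0312, with 1487 to 4627 CPM each. With cells assigned to hashtags from the tag counts the Gbp2 ratio fell to 0.83 and was not called.

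T-cell-like against macrophage-like cells, Gbp7 (2.92), Zbp1 (2.10), Irf7 (1.61) and Ddx58 (1.29) were called higher and Oasl1 (-1.85) lower. These 4 and 1 of 35 stand beside 10.5% and 2.91% of all genes, with 24 members not called and 6 under the level, and without A0310 the calls rose from 5 to 8. The median was 0.63 over tested members and 0.30 over all genes. Of 42 other induced genes 17 were called higher, with Gbp4 at 4.93, Ly6e at 4.89 and Slfn1 at 4.20. The gamma receptor chain Ifngr1 (2.19), Jak2 (1.99), Jak1 (1.48), Socs1 (3.46) and the ligand Ifng (6.96) were also called higher.

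Within the macrophage-like cells, resident-like cells (180) were set against lipid-associated-like cells (473). The latter were named from Gpnmb, Mmp12 and Fabp5, while Trem2, Cd9, Spp1, Lpl and Cd63 of the same list did not meet the naming rule. Oas2 was at 35.8 against 1.65 CPM (log2 ratio 3.80), Ifitm3 at 924 against 80.4 CPM (3.51) and Gbp7 at 52.7 against 4.65 CPM (3.25), and Zbp1 (1.99), Stat2 (1.83) and Ddx58 (1.41) were also called higher. That made 6 higher and none lower of 35, beside 6.67% and 3.02% of all genes, with 25 not called and 4 under the level. The median was 0.84 over tested members and 0.27 over all genes. Median counts per cell were 21405 in resident-like and 71996 in lipid-associated-like cells, and the part of depth in the result was not tested. Of 33 other induced genes 9 were called higher, with Ly6e at 6.08, Ifi27l2a at 4.98 and Ifi203 at 2.71.

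A small number of cells carried far more. A cell was counted as strongly induced when the CPM of Rsad2, Ifit1, Ifit3, Isg15 and Cmpk2 summed to 1000 or more and at least 3 of the 5 were detected. The other 30 members were not used by that rule. It took 116 of 15192 cells, or 0.764% (0.631% to 0.915%, exact binomial 95% interval for counting error only). It cuts a continuous range and defines no cell type. With at least 3 of the 5 genes detected, 104 cells lay between 500 and 1000 CPM, just outside the rule, and 66 between 1000 and 2000 CPM, just inside it.

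Endothelial-like cells gave 41 such cells (3.52%, 2.54% to 4.74%), with 5, 12, 13 and 11 in A0309, A0310, A0311 and A0312. Fibroblast-like cells gave 31 (0.781%, 0.532% to 1.11%), with 6, 9, 7 and 9. Macrophage-like cells also gave 31 (0.364%, 0.247% to 0.516%), with 1, 5, 16 and 9, so that A0311 held more than any other hashtag. There were 5 in monocyte-like cells, of which 4 in A0310, 4 in mural-like, 3 in T-cell-like and 1 in dendritic-cell-like cells. At 3000 CPM the shares were 0.172% of endothelial-like, 0.302% of fibroblast-like and 0.164% of macrophage-like cells. At 5000 CPM they were 0.0858%, 0.151% and 0.106%, so the order of lineages depended on the cut. By the other genes described under Other observations, the numbers were 10, 12 and 32 cells. Median counts per cell were 14412.5 in endothelial-like, 36797 in fibroblast-like and 41223 in macrophage-like cells. The same CPM is thus reached with fewer counts in a typical endothelial-like cell. The part of depth in these shares was not tested.

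**Figure D3:**
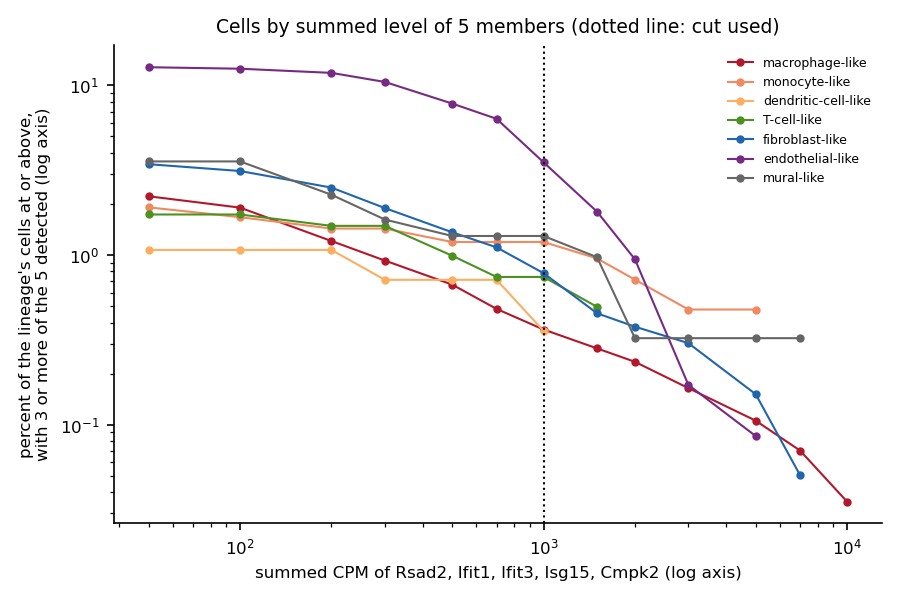
Percent of a lineage's cells (log axis) whose summed CPM of Rsad2, Ifit1, Ifit3, Isg15 and Cmpk2 is at or above the value on the x axis (log axis), with at least 3 of the 5 detected and a dotted line at 1000 CPM. At that line the curves stand at 3.52% of endothelial-like, 0.781% of fibroblast-like and 0.364% of macrophage-like cells.

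Typical cells of the 3 lineages also differed. The median sum of the 5 genes over all cells was 0 CPM in macrophage-like and fibroblast-like cells and 129.8 CPM in endothelial-like cells. In the strongly induced cells, chosen on this same sum, medians were 2816 CPM in macrophage-like, 1903 CPM in fibroblast-like and 1507 CPM in endothelial-like cells. Highest values were 14701, 8891 and 5729 CPM. These values describe the cells past the cut and set no order of lineages. Strongly induced cells held 37.1% of all counts of the 5 genes in macrophage-like cells, 39.1% in fibroblast-like cells and 18.2% in endothelial-like cells. Of the counts of all 35 members they held 5.18%, 4.13% and 6.29%. Without them Rsad2 was at 12.5 CPM in macrophage-like, 3.94 CPM in fibroblast-like and 129.4 CPM in endothelial-like cells.

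Most of the 30 members outside the rule were also higher in the cells that it took, with exceptions in fibroblast-like and endothelial-like cells named below. A strongly induced cell had a median of 25 of the 30 detected in macrophage-like cells, 23 in fibroblast-like cells and 13 in endothelial-like cells, against 7, 7 and 8 in the other cells. Median counts per cell were near each other in macrophage-like (39301 and 41265.5) and fibroblast-like cells. In endothelial-like cells they were 12743 in strongly induced and 14494 in other cells. No hashtag had 20 strongly induced cells of a lineage, so calls between these sets rest on the pool alone. The cells were chosen on counts from the same libraries, so the ratios describe them and test nothing.

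In macrophage-like cells all 30 of the members outside the rule were called higher, in fibroblast-like cells 28 and in endothelial-like cells 23. Members under 5 CPM in the other cells were read only through the strongly induced set, so they could be called higher but not lower. In macrophage-like cells these were Ifit2, Ifit3b, Mx1, Mx2, Isg20, Oas3, Usp18 and Ifi44. In fibroblast-like cells they were Ifit3b, Mx1, Mx2, Oasl1, Oas2, Oas3 and Ifi44, and in endothelial-like cells Zbp1. Of all genes 6.83%, 6.93% and 8.22% were called higher and 7.68%, 9.28% and 13.1% lower. Median log2 ratios over the 30 were 3.68, 3.17 and 1.36. With each hashtag left out in turn the counts were 30 in macrophage-like, 28 to 29 in fibroblast-like and 19 to 23 in endothelial-like cells.

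In macrophage-like cells the largest ratios outside the rule were Ifit2 at 7.77 (866.9 against 2.97 CPM), Ifit3b at 6.59, Mx1 at 6.47 (383.7 against 3.35 CPM) and Usp18 at 5.51. In fibroblast-like cells they were Ifit3b at 6.43, Mx1 at 6.06 (149 against 1.24 CPM), Oasl1 at 4.86 and Usp18 at 4.80. Isg20 (0.88) and Ifitm3 (0.98) were not called there. In endothelial-like cells the largest were Ifit3b at 3.86, Ifit2 at 3.15, Oasl1 at 2.78 and Mx2 at 2.76. The coding sequence of Ifit3b is 99.1% identical to that of Ifit3, a gene of the rule. Reads could have been split between them, so the Ifit3b ratios are not independent of the rule. Oas1a, Irf9, Ifi35, Bst2 and Ifitm3 were not called and Mx1 and Oas3 were under the level.

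**Figure D4:**
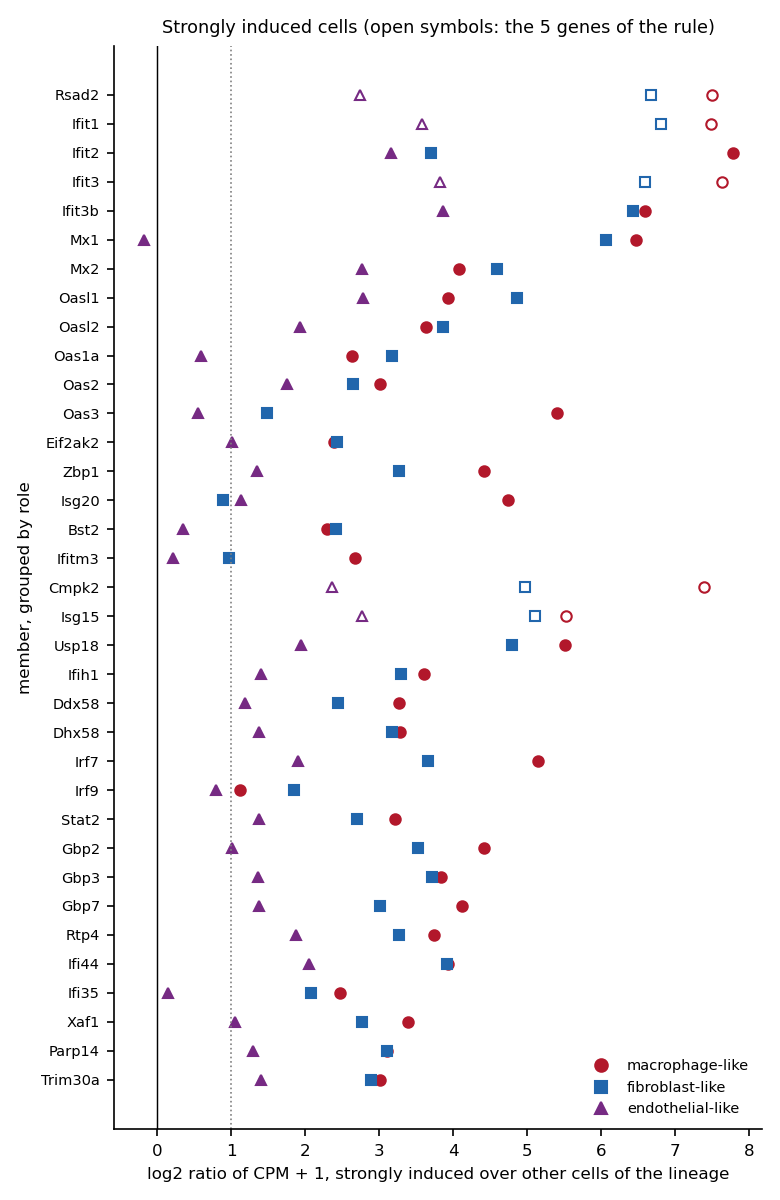
Log2((CPM + 1)/(CPM + 1)) of strongly induced against other cells for each of the 35 genes in macrophage-like, fibroblast-like and endothelial-like cells, with open symbols for the 5 genes of the rule and a dotted line at 1. Mx1 is at 6.47 and 6.06 in macrophage-like and fibroblast-like cells and is not above 1 in endothelial-like cells.

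The members present in a strongly induced cell differed by lineage. Mx1 was detected in 29 of 31 strongly induced macrophage-like cells, 15 of 31 fibroblast-like cells and 1 of 41 endothelial-like cells. After thinning, which kept cells with 10000 counts, it was detected in 23 of 30, 12 of 30 and 0 of 27, which allows a share of up to 11.1% of cells with a count. Oas3 was detected in 25 of 31, 8 of 31 and 2 of 41, at 178, 11.9 and 3.15 CPM. Rsad2 was at 2445, 501 and 868 CPM, Cmpk2 at 1018, 269 and 240 CPM, and Ifit1 at 504, 1039 and 229 CPM in the same order. Rsad2 and Cmpk2 were thus highest in the macrophage-like and Ifit1 in the fibroblast-like set. All of them are genes of the rule, so these levels only describe the cells that it took. The macrophage-like Rsad2 level was 5640 CPM in the 5 cells of A0310 and 2001 and 1997 CPM in A0311 and A0312, and the single cell of A0309 had 348 CPM.

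Other induced genes also differed by lineage, and no test of these differences was possible. Cxcl10, a chemokine that draws T cells, was at 407 CPM in strongly induced macrophage-like cells (17 of 31 with a count), 385 CPM in fibroblast-like cells (16 of 31) and 1.58 CPM in endothelial-like cells (1 of 41). Ifi27l2a was at 439, 1094 and 4.73 CPM, and was called lower in the strongly induced endothelial-like cells, as was Cxcl10. Cxcl9 was at 107 and 323 CPM in macrophage-like and fibroblast-like cells, with 98.6% and 93.2% of the counts in 1 cell, and at 148 CPM in endothelial-like cells, where 20 of 41 had a count. Gbp4, a gamma-responsive gene, was at 12.8, 45.7 and 273 CPM.

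Of the list of other induced genes 43 of 44 were called higher in macrophage-like cells and 42 of 44 in fibroblast-like cells, and in endothelial-like cells 19 of 42 were called higher and 3 lower. None of the 5 tested receptor genes was called in any of the 3 lineages. Tlr3 was called higher in macrophage-like (2.46) and fibroblast-like cells (2.18), Socs1 in both (1.59 and 1.22), and Ticam1, the adaptor of Tlr3, was called lower in all 3 lineages.

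Markers of other lineages were measured in the same cells. Strongly induced macrophage-like cells had a summed level of macrophage markers of 10572 CPM against 9151 CPM in other macrophage-like cells. Monocyte markers summed to 54.3 against 322 CPM with 2 of 7 at 0, fibroblast markers to 82.2 against 86.4 CPM with 3 of 6 at 0, and T-cell markers to 1.51 against 2.94 CPM. Endothelial markers summed to 79.2 against 45.7 CPM with 0 of 6 at 0, and markers of plasmacytoid dendritic cells to 191 against 109 CPM with 2 of 5 at 0. Strongly induced fibroblast-like cells had fibroblast markers at 38243 against 40093 CPM, macrophage markers at 266 against 1029 CPM and monocyte markers at 6986 against 4683 CPM, with 2 of 7 of the latter at 0. They also had endothelial markers at 131 against 45.4 CPM and T-cell markers at 28.8 against 5.60 CPM, with 1 of 6 at 0. Strongly induced endothelial-like cells had endothelial markers at 8604 against 7684 CPM, mural markers at 902 against 1635 CPM and fibroblast markers at 186 against 651 CPM, with 2 of 6 at 0. The part of these markers in the result was not tested.

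Strongly induced cells were spread unevenly over sub-clusters. The fibroblast-like sub-cluster led by Sema3c, Pi16, Dpp4 and Cd55, genes of adventitial progenitors, had 12 of its 413 cells (2.91%, 1.51% to 5.02%), with 1, 4, 3 and 4 by hashtag. The other fibroblast-like sub-clusters of 100 or more cells had between 0% and 1.14%. Its Ifit1 level was 66.2 CPM, and 15.8 CPM without those 12 cells. A sub-cluster of 83 fibroblast-like cells whose leading genes were endothelial had 3, all in A0312. Macrophage-like sub-clusters of 100 or more cells had between 0% and 0.704%. The one led by Il1b and Ccl4, of 1421 cells, had 10, of which 7 were in A0311, and sub-clusters of 956 and 683 cells had 0.628% and 0.586%. The 180 resident-like cells had 0, which allows a share of up to 1.67%, and so did sub-clusters of 871, 555 and 228 cells.

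Other sub-clusters were also mixed and stay in the lineage levels. A set of 235 macrophage-like cells led by Sparc, Igfbp7, Gpihbp1 and Cldn5 had Rsad2 at 41.3 CPM, against 20.2 CPM in the lineage. A set of 356 fibroblast-like cells led by Lyz2, Cd74 and C1qa had Oas1a at 22.4 CPM, against 8.97 CPM in the lineage.

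The authors' cell names and the deposited tag counts did not give the same hashtag for every cell. From the tag counts 93.6% of macrophage-like and 81.7% of endothelial-like cells had a single hashtag, but 26.6% of fibroblast-like cells did. Another 39.5% of fibroblast-like cells held several, with over 25% of tag counts from the second hashtag. The remaining 33.9% were unassigned, with under 10 tag counts or with no hashtag at 75%. Of strongly induced cells 28 of 31 macrophage-like and 32 of 41 endothelial-like ones had a single hashtag. In fibroblast-like cells the strongly induced share was 0.568% in cells with a single hashtag, 0.830% in cells with several and 0.892% in unassigned cells. The hashtag of a fibroblast-like cell is therefore the least certain.

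Counts of these genes gathered in few cells in most lineages. The 1% of cells with the highest CPM of a gene held a median of 9.62% of its counts over members in macrophage-like cells, against 5.83% over all genes at 5 CPM or more. The medians were 24.6% against 11.8% in monocyte-like cells and 14.9% against 7.92% in fibroblast-like cells. In endothelial-like cells they were 10.4% against 12.2%. Over genes at 5 to 100 CPM the endothelial medians were 14.5% for members and 14.1% for all genes. For Rsad2 the share was 50.0% in macrophage-like, 58.7% in fibroblast-like and 10.0% in endothelial-like cells.

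Hashtags were compared by the sum of the 33 members without Ifitm3 and Bst2, which would otherwise dominate it. In macrophage-like cells it was 408, 480, 570 and 553 CPM in A0309, A0310, A0311 and A0312, and 399, 439, 516 and 526 CPM without the strongly induced cells. In fibroblast-like cells it was 544, 589, 603 and 660 CPM, and in endothelial-like cells 1492, 1686, 1751 and 1857 CPM. A0309 was lowest in these 3 lineages and in monocyte-like cells (715, 1270, 1011 and 1174 CPM). Without the strongly induced cells monocyte-like cells had 620, 578, 1011 and 1174 CPM, and A0310 was then the lowest. T-cell-like cells (793, 687, 1040 and 824 CPM) and mural-like cells (847, 994, 802 and 1201 CPM) had other orders.

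**Figure D5:**
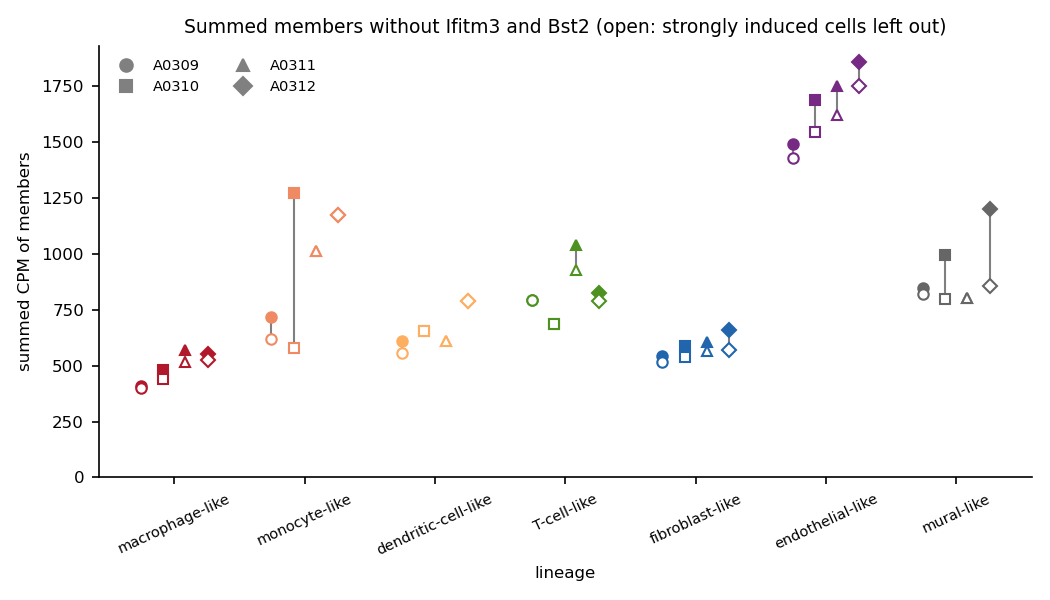
Summed CPM of 33 members by lineage and hashtag, with filled symbols for all cells and open symbols for cells that were not strongly induced. In monocyte-like cells A0310 moves from 1270 to 578 CPM, while in macrophage-like cells A0309 stays lowest, at 408 and 399 CPM.

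Gene by gene, 21 of 26 members at 5 CPM or more in macrophage-like cells were lowest in A0309, where 34.5% of all genes were, and 0 were highest there. In fibroblast-like cells 16 of 29 were lowest in A0309 (25.2% of all genes) and 18 were highest in A0312 (28.8%). In endothelial-like cells 14 of 32 were lowest in A0309 (24.7%) and 15 highest in A0312 (25.7%). These differences were small. The median log2 ratio of members, each hashtag against the other 3, ran from -0.29 to 0.18 in macrophage-like, from -0.18 to 0.17 in fibroblast-like and from -0.23 to 0.18 in endothelial-like cells.

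By the rule of size, which here used the pool only, macrophage-like cells had 1 call, Cmpk2 in A0309 at -1.25, where 0.242% of all genes were called higher and 0.261% lower. Of the lineage's Cmpk2 counts 38.9% lay in its 31 strongly induced cells, of which 1 was in A0309. No member was called in the other macrophage-like hashtags, where 0.184% and 0.107% of all genes were called higher and lower in A0310, 0.068% and 0.068% in A0311, and 0.0291% and 0.126% in A0312. No member was called in fibroblast-like cells, where the shares of all genes were 0.0783% and 0.113% in A0309, 0.0522% and 0.0871% in A0310, 0.0348% and 0.0261% in A0311, and 0.113% and 0.052% in A0312. None was called in endothelial-like cells either, with shares of 1.28% and 0.804%, 0.919% and 0.862%, 0.387% and 0.774%, and 0.437% and 1.39% in the same order.

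Monocyte-like cells had 70 to 173 cells a hashtag and gave calls in every hashtag. In A0310 12 of 34 members were higher and 4 lower (3.19% and 5.36% of all genes), led by Ifit1 at 3.51, Ifit3b at 3.07, Ifit2 at 2.62 and Ifit3 at 2.28. Its 4 strongly induced cells held 90.3% of the counts of the 5 rule genes in that hashtag. In A0309 0 were higher and 11 lower (1.79% and 3.03%), with Ifit1 at -2.80, Gbp2 at -1.67 and Zbp1 at -1.60. In A0311 0 were higher and 7 lower (3.23% and 4.20%), and in A0312 5 were higher and 6 lower (4.79% and 3.26%), with Gbp2 at 1.90 and Rsad2 at -2.31. The 5 strongly induced monocyte-like cells, 1 in A0309 and 4 in A0310, held 77.1% of the lineage's Ifit1 and 65.5% of its Rsad2 counts. Those of A0310 were part of the set against which each other hashtag was read. Without strongly induced cells 11 of 29 members were lowest in A0309, against 21 of 34 with them.

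The small T-cell-like and mural-like sets gave calls in both directions. In T-cell-like cells members higher and lower were 1 and 5 of 28 in A0309 (5.41% and 7.12% of all genes), 0 and 10 of 31 in A0310 (7.18% and 8.08%), 5 and 0 in A0311 (8.29% and 7.42%) and 3 and 1 of 33 in A0312 (3.78% and 5.89%). In mural-like cells, where each hashtag holds both sets of cells named above, they were 0 and 10 of 31 in A0309 (4.44% and 6.08%), 4 and 1 of 33 in A0310 (5.06% and 5.12%), 0 and 6 in A0311 (4.67% and 6.24%) and 7 and 0 in A0312 (4.48% and 6.51%). Usp18 in mural-like cells, for example, was at 1.90, 5.94, 11.6 and 29.5 CPM. All 4 hashtags of a lineage share cells across these comparisons, since each hashtag is also part of the set against which the others were read.

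Few interferon transcripts were counted. Ifnb1 had 29 counts in 9 cells, 27 of them in 7 macrophage-like cells, 1 of which was strongly induced. Ifna2 had 5 counts in 4 cells and Ifnk 16 counts in 9 cells. Ifna1, Ifna4, Ifna5, Ifne, Ifnl2 and Ifnl3 were not analysed here. Ifng had 994 counts in 175 cells, 887 of them in 127 T-cell-like cells, where its level was 137 CPM. It also had 57 counts in 19 fibroblast-like and 46 counts in 26 macrophage-like cells.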

How the data were processed

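Per the labels, transcripts and hashtags of 1 pooled stromal vascular fraction were read by TAS-Seq. The authors deposited tables of whole-number counts per gene and cell and of hashtag counts per cell. Bowtie2 2.4.2, cutadapt 3.4, R 4.1.2, R 3.6.3 and the build GRCm38 are named without their roles, per the submitters' processing notes. The sources used here do not say if reads or molecules were counted, or if strand was used. In 65 genes detected in 100 or more cells no value was under 5, so low values may have been set to 0 before deposit, and none of these is among the 35 genes.

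Cells kept the hashtag in the authors' cell names. The 367 cells that the authors named doublets were removed and no doublet caller was run. Another 182 cells with fewer than 200 genes or over 25% mitochondrial counts were removed. Counts were scaled to 10000 per cell, and the 35 genes and other pathway genes were left out. Leiden clusters (resolution 1, seed 1) came from 20 neighbours in 30 principal components of 2000 variable genes. A cluster was named when 3 markers of a class were found in at least 25% of its cells. The scoring of markers, and the second clustering of mixed clusters of 100 or more cells, were chosen after seeing the data. States of macrophages and sub-clusters came from clustering that lineage again.

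Levels are CPM of counts summed over cells, and ratios carry a pseudocount of 1 CPM. The rule of size is given with its first use. The members and all lists were chosen with earlier results of these data known. Of 83 other pathway genes 75 were analysed, 8 were not. One of the 75 is not reported here. Genes named in the text followed a rule: the 2 members of each role with the highest level in any lineage, up to 4 called members in each direction, the uncalled member with the highest level, up to 3 called genes of each pathway list, and every ligand with a count. Clec4e, and Usp18 in mural-like cells as an example, fall outside it and were chosen after their values were seen.

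With 1 pool there is no replicate of a genotype, so no test was run. Depth sets the precision: intervals are exact Poisson or binomial intervals at 95%, a count of 0 is read against 3 counts, and both cover counting error only. Alternatives were other Leiden resolutions, another pseudocount, no level filter, a mean over cells, each hashtag left out, other cuts of the strongly induced cells, and hashtags assigned from the tag counts (at least 10 counts, 75% from 1 hashtag and at most 25% from the next), which kept 11281 cells. The comparison routine was tested on simulated counts. Tools were Python 3.11.15, numpy 2.4.6, pandas 2.3.3, scipy 1.17.1, scikit-learn 1.9.0, scanpy 1.11.5, leidenalg 0.10.2, matplotlib 3.10.9 and biopython 1.88.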

Additional observations from a re-analysis of the deposited data

Results flagged for a closer look

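The hashtag library also held counts of 11 hashtags that no cell name carries. They came to 5294 of 38144503 tag counts, or 0.0139%, which is above the limit that a count of 0 allows. No cell entered any result on the basis of these tags.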

How the results depend on the processing

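No ratio named in the text changed direction under the alternatives run for it. The order of hashtags in the monocyte-like sum did: without strongly induced cells A0310 went from highest at 1270 CPM to lowest at 578 CPM, and from 22 of 34 members highest to 0 of 29. For genes named in the lineage and strongly induced comparisons, 322 values kept their side of the threshold, 20 lost it and 1 gained it. Counts of calls moved more. Monocyte-like against macrophage-like cells, 10 calls became 3 at Leiden resolution 0.5, 5 at resolution 2, 4 with hashtags from the tag counts, 3 with a pseudocount of 5 CPM, 6 with a mean over cells and 4 without the strongly induced cells. With hashtags left out in turn the count ran from 10 to 11. Macrophage-like against fibroblast-like cells, 9 calls became 5 with hashtags from the tag counts, and ran from 9 to 12 with hashtags left out. T-cell-like against macrophage-like cells, 5 calls became 3 with a pseudocount of 5 CPM and ran from 5 to 8, with 8 when A0310 was left out. Resident-like against lipid-associated-like macrophages, 6 calls became 12 at resolution 2 and 10 with tag counts, and ran from 6 to 8 with hashtags left out. Resolution 0.5 gave no value there. Endothelial-like against fibroblast-like cells, the 14 calls ran from 13 to 16 with hashtags left out.

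Of 90 values outside the rule in strongly induced cells of 3 lineages, 81 calls became 50 with tag counts, where 6 fibroblast-like cells were left. With hashtags left out they ran from 50 to 81, with 50 without A0311, which leaves 15 macrophage-like cells, under the minimum of 20. Without that minimum, an alternative chosen after seeing the data, 80 were called. Calls between hashtags over 6 lineages were 99, and 48 with a pseudocount of 5 CPM, 62 without strongly induced cells, and 65 to 84 with hashtags left out, with 65 without A0310. The strongly induced share of 0.764% became 1.45% at 500 CPM, 0.329% at 2000 CPM, 0.981% with 2 genes detected and 0.421% with 5 other genes (Ifit2, Oasl1, Mx1, Usp18 and Irf7), and 0.697% to 0.846% with hashtags left out. The top share of 9.62% became 38.2% when read over the top 5% of cells, and 9.22% to 10.4% with hashtags left out. No paired analysis was possible because the labels give 1 pool and no replicate numbers shared between groups.

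Hashtags carry no genotype label, 26.6% of fibroblast-like cells have a single hashtag by tag counts, and calls between hashtags in the monocyte-like, T-cell-like and mural-like sets rest on few cells. Fewer induced cells and less RNA per induced cell cannot be told apart in a summed level.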

Other observations

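A further set of cells was read with genes known mainly for their response to interferon gamma, by a rule chosen after the values had been seen. A cell passed when the CPM of 7 such genes summed to 1000 or more and at least 3 of the 7 were detected. It took 316 of 15192 cells (2.08%, 1.86% to 2.32%, exact binomial interval), of which 44 were also strongly induced by the rule on Rsad2, Ifit1, Ifit3, Isg15 and Cmpk2. Endothelial-like cells gave 221 (19.0%, 16.7% to 21.3%), with 54, 33, 55 and 79 in A0309, A0310, A0311 and A0312, and 21 of them were strongly induced as well. Mural-like cells gave 22 (7.12%), T-cell-like cells 10 (2.48%), fibroblast-like cells 31 (0.781%, of which 15 were also strongly induced) and macrophage-like cells 12 (0.141%, of which 4 were).

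In monocyte-like cells the sets held 5 and 4 of 419 cells, too few to read anything from their lack of a shared cell. The 5 strongly induced cells lay in A0309 and A0310, and the 4 cells past the gamma rule in A0311 and A0312, 2 in each. The 5 monocyte-like cells with the highest Gbp2 CPM held it at 1487 to 4627 CPM, and none was strongly induced. Ifit1 had no count in any of them and Rsad2 a count in 1, while Cxcl9 was at 3820 to 14338 CPM in 4 of the 5. These are single cells of 1 pool and give no comparison between hashtags.

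By the 5 other genes, Ifit2, Oasl1, Mx1, Usp18 and Irf7, 64 cells passed the same limits, and 50 of them were among the 116. In macrophage-like cells 24 of 32 were shared, in fibroblast-like cells 11 of 12 and in endothelial-like cells 6 of 10.

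The 30 B-cell-like cells with Siglech among their leading genes, set aside above as too few, had Bst2 at 1240 CPM (1137 to 1349 CPM, exact Poisson interval), against 354.5 CPM in endothelial-like cells. Bst2 is also known as a surface marker of mouse plasmacytoid dendritic cells. Irf9 was at 157.6 CPM (122.4 to 199.8 CPM) and Stat2 at 139.0 CPM (106.1 to 179.0 CPM) in the same 30 cells.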
